A study of Rattus norvegicus with 89 samples.

Results

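The constitutive proteasome genes were taken as every probe set with a single gene symbol of the Psma to Psmg series, leaving out Psmb8, Psmb9 and Psmb10, the catalytic subunits of the immunoproteasome. This gave 57 probe sets of 43 genes, out of 14217 named genes on the array. Of the 43 genes, 41 encode proteasome subunits, regulators or assembly chaperones. The other 2 (Psmc3ip and Psme3ip1) match the name rule but do not encode proteasome subunits. All 43 genes and 53 of the 57 probe sets passed the filter on low signals; the 4 that did not were extra probe sets of Psmb5, Psmc4 and Psmd11. A further 6 probe sets carried several symbols and were left out, so Psmb6 and Psme3 were not measured on their own.

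Kidney RNA from 89 Sprague-Dawley rats (Crl:CD(SD), 7 to 8 weeks old, 44 males and 45 females) was hybridised, 1 array per rat. Rats were dosed daily with saline, gentamycin, tobramycin, cisplatin, cadmium, doxorubicin or valproic acid (ValproicAcid in the labels) and sampled at day 1 or day 5, and 1 further group was naive, that is, untreated. With sexes balanced as far as possible, saline day 1 held 7 rats, saline day 5 and doxorubicin day 5 held 5 each, and the other 12 groups held 6 each. Gentamycin and tobramycin are aminoglycoside antibiotics, cisplatin a platinum drug, cadmium a heavy metal and doxorubicin an anthracycline; valproic acid is an anticonvulsant that also inhibits histone deacetylases. The labels state no dose. The tissue was a homogenate of the apical parts of both kidneys, so every value is an average over all cell types there. Proximal tubule markers were abundant, with a summed signal of 7 genes that averaged 21923 to 26441 per group, whereas 3 adrenal cortex markers summed to 25.4 to 37.5. Groups follow the sample titles. For 5 arrays the text on treatment was missing or said something other than the title (saline rats 1F104, 1M2 and 1M4, the gentamycin day 5 rat 2F114 and the cadmium day 1 rat 5F137).

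The proteasome is the protease that degrades ubiquitin-tagged proteins in the cytosol and nucleus. Its core particle is a barrel of alpha subunits (Psma genes), which gate the entrance, and beta subunits (Psmb genes), of which Psmb5, Psmb6 and Psmb7 carry the active sites. The regulatory particle caps the barrel: Psmc genes encode its ATPases, which unfold the substrate, and Psmd genes encode mostly the non-ATPase subunits that bind and remove ubiquitin. Psme genes encode activators that bind the core in place of this cap, Psmf1 an inhibitor, and Psmg genes chaperones of core assembly. When proteasome activity drops, the transcription factor encoded by Nfe2l1 is known to raise the subunit genes together.

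The deposited MAS5 signal, a linear intensity brought here to a common level per array, had a median of 621 over the 53 member probe sets. Signals of different probe sets are not levels that can be set against each other. Mean signals ran from 26.0 for a minor Psme1 probe set to 2154 for Psma6. Between rats of a group and sex, the median residual SD was 0.133 on the log2 scale, against 0.220 over all probe sets tested. The smallest were 0.0783 for Psmg1, 0.0802 for Psmc4 and 0.0865 for Psma7. The largest were 0.480 for the Psme4 probe set 1387345_at and 0.306 for the Psmd14 probe set 1394082_at. The member probe sets were also brighter, with a median signal of 621 against 161 over all probe sets tested. The spread was not compared at matched signal, so the smaller SD is not read as particular to the members.

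No member passed the test against saline of the same day after any of the 6 agents at day 1 or day 5. In the 12 comparisons, 0 of 636 estimates passed the threshold (limma, Benjamini-Hochberg adjusted p under 0.05 over all 15800 probe sets). The smallest adjusted p was 0.377. At an unadjusted p under 0.05 there were 27 estimates (4.25%), 26 higher and 1 lower. Over all probe sets in the 12 comparisons that share was 6.1%, 3.35% higher and 2.75% lower. The share of all probe sets called was also low. At day 1 it was 0% for gentamycin, 0.0506% for tobramycin, 0% for cisplatin, 0.0253% for cadmium, 0.0316% for doxorubicin and 0.0696% for valproic acid. At day 5 it was 0% for gentamycin, tobramycin, cadmium and valproic acid, 0.00633% for cisplatin and 0.0759% for doxorubicin. In these comparisons the members' count of 0 is therefore what the background share would give.

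The intervals were narrow enough to bound most members. Of the 636 estimates, 601 (94.5%) had a 95% interval that lay wholly within a 1.5-fold change in either direction, and 609 were smaller than 0.25 in size on the log2 scale. The median change over the 53 members lay between -0.01 and 0.07 in all 12 comparisons, beside -0.01 to 0.02 for all probe sets tested. The largest medians were 0.07 with valproic acid at day 5, where 42 of 53 members had estimates above 0 (79.2%, against 54.8% of all probe sets), and 0.05 with cisplatin and with doxorubicin at day 5. These 3 comparisons share the same 5 saline rats. Without the saline rat 1F105 the medians became 0.03, 0.02 and 0.03, and without the saline rat 1M5 the cisplatin median was 0.03. Without further scaling of the arrays the doxorubicin median was -0.05, beside -0.07 for all probe sets. All fold changes here are on the scale of log2(signal + 16), which understates those of weak probe sets. The fit that pooled all 89 arrays called 0 members in each comparison too, with a background of 0.12% over the 12 (at most 0.392% in one). Without the 5 arrays of doubtful treatment text the count was also 0 in each.

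**Figure D1:**
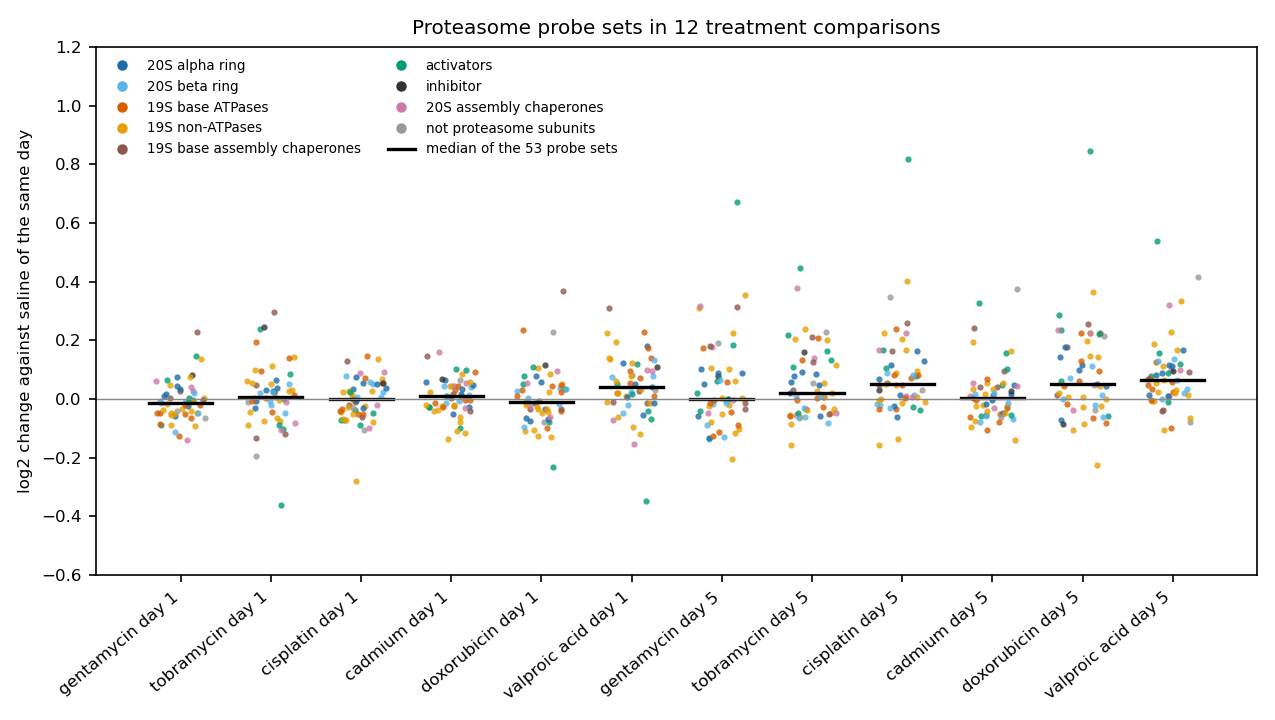
Log2 change of each of the 53 member probe sets (points, coloured by role) in the 12 comparisons with saline of the same day; the bar is the median. Nearly all points lie within 0.25 of 0, and the highest point, 0.85 with doxorubicin at day 5, is Psme4 1387345_at.

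By role, the picture was the same. Among the 20S core subunits, the alpha ring estimates ran from -0.13 to 0.18 and those of the beta ring from -0.14 to 0.14. Psmb5, the chymotrypsin-like subunit, had group means between 1656 ± 110 (SD, n = 6, gentamycin day 5) and 1852 ± 153 (SD, n = 6, valproic acid day 5), and its 12 estimates lay between -0.14 and 0.08. Psmb7, the trypsin-like subunit, ranged from 1156 ± 149.1 (cadmium day 5) to 1334 ± 125 (valproic acid day 5; SD, n = 6 each), with estimates of -0.07 to 0.14. Psma1, an alpha-ring subunit, had estimates of -0.07 to 0.17. No core subunit passed a test over the 15 groups at once, so no order of the groups is read from these means.

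The 19S subunits had no call either. The ATPase estimates ran from -0.13 to 0.24 and the non-ATPase estimates from -0.28 to 0.40. Psmc4, an ATPase of the base, kept within -0.10 to 0.01, with group means of 723 ± 72.6 (doxorubicin day 1, n = 6) to 794 ± 80.2 (saline day 5, n = 5). Psmd4, a ubiquitin receptor, kept within -0.08 to 0.08. Psmd14, the deubiquitinase that strips ubiquitin chains from substrates, had estimates of -0.09 to 0.17. Psmd11, a lid subunit, gave the largest negative estimate among the members in the upper part of the signal range in 5 of the 6 day 5 comparisons: its probe set 1376069_at stood at -0.21 with gentamycin, -0.16 with tobramycin, -0.16 with cisplatin, -0.14 with cadmium and -0.23 with doxorubicin (adjusted p 0.634 to 1.00). Its brighter probe set, 1374712_at, gave -0.09 with tobramycin and -0.08 with doxorubicin. Against the naive rats in place of saline, the 1376069_at estimates at day 5 were all positive, at 0.05 to 0.19.

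The regulators had no call either. Psmf1, the inhibitor, had the smallest adjusted p of all members, 0.377, for tobramycin at day 1: its signal was 480 to 588 with a median of 509 in the 6 tobramycin rats and 384 to 480 with a median of 441 in the 7 saline rats, a change of 0.24 ± 0.076 (SE). The ranges just met, and the call was not made. Psme1 and Psme2, the alpha and beta chains of the PA28 activator, had estimates of -0.05 to 0.18 and -0.06 to 0.24. Psme2 was highest with tobramycin at day 1, at 702 ± 170 (SD, n = 6), and lowest with cisplatin at day 1, at 567 ± 53.2 (SD, n = 6).

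Psme4, which encodes the PA200 activator, had the largest estimate among the members, in 1 of its 3 probe sets. With doxorubicin at day 5 the estimates were 0.85 (95% interval 0.21 to 1.48) for 1387345_at, 0.29 (0.06 to 0.52) for 1368818_at and 0.24 (0.01 to 0.47) for 1368817_at, none past the adjusted threshold (adjusted p 0.526 to 0.653). For 1387345_at the 5 saline rats of day 5 read 110, 304, 340, 403 and 546, and the 5 doxorubicin rats 339, 391, 574, 583 and 737. Both groups were spread widely and they overlapped. The saline group of day 5 was itself low, at 341 ± 158.6 (SD, n = 5), against 558 ± 149.5 (SD, n = 7) in saline at day 1 and 465 ± 95.8 (SD, n = 6) in naive rats. Across 89 rats, with group and sex removed, 1387345_at correlated at r = 0.55 with 1368817_at and at r = 0.13 with 1368818_at, and the latter pair with each other at r = 0.53.

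The lowest Psme4 reading, 110, came from the female saline rat 1F106, which also had the highest 3' to 5' signal ratio of the Gapdh control probe sets, a measure of RNA integrity: 1.58 on the log2 scale, against a median of 0.358 over all rats. Several members followed this ratio across the 89 rats. With group and sex removed, 17 of 53 members (32.1%) had a correlation above 0.5 in size, against 27.0% of all probe sets tested; 7 were positive and 10 negative. The strongest were the Psmd14 probe set 1394082_at (r = -0.92, rho = -0.86), Psmd6 (r = -0.82, rho = -0.73), Psme4 1387345_at (r = -0.82, rho = -0.75), Psma1 (r = -0.78, rho = -0.70) and Psma2 (r = -0.78, rho = -0.60). On the positive side stood Psmd11 1376069_at (r = 0.66, rho = 0.56) and Psmc6 1379850_at (r = 0.64, rho = 0.55). Each of these had the smallest p that 100000 permutations can give, 1e-05 (adjusted over the 53 members 2.8e-05), and none fell below 0.52 in size without the 2 rats of the most extreme ratio.

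With the Gapdh ratio as a term in the day 5 fits, the Psme4 1387345_at estimates were 0.09 to 0.41 in place of 0.33 to 0.85, and without rat 1F106 they were 0.02 to 0.49. Psmd6, a regulatory-particle subunit, had the largest or next largest positive estimate among the brighter members in 5 of the 6 day 5 comparisons. Its values of 0.03 to 0.31 became -0.08 to 0.08 with the ratio in the fit. Rat 1F106 read 511 for Psmd6, and the other 4 saline rats of day 5 read 815 to 1090.

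A single member probe set differed among the 15 groups when all were tested at once. The Psmc6 probe set 1382385_at, for an ATPase of the base, passed a moderated F test over all 89 rats (F = 2.92, limma adjusted p = 0.0437), where 3.37% of all probe sets did. Its group means ran from 140 ± 9.9 (SD, n = 6) with gentamycin at day 1 to 194 ± 42.6 (SD, n = 6) with cisplatin at day 5, with naive at 155.2 ± 10.2 (n = 6), saline day 1 at 155.4 ± 23.2 (n = 7) and saline day 5 at 161.3 ± 20.95 (n = 5). The gentamycin day 1 rats read 127.7 to 151.3 and the cisplatin day 5 rats 138.5 to 254, so even the extreme groups overlapped. The brighter Psmc6 probe sets, with mean signals of 667 and 579, were not called and correlated with it at r = 0.17 and r = 0.45 over the 89 rats, with group and sex removed. The call was lost with quantile normalization (adjusted p 0.0542), without the filter on low signals (0.0552), without the sex term (0.0788), and in 41 of 89 fits that left out 1 rat. Next came Psmb3, a beta-ring subunit (adjusted p 0.153), Psme4 1368818_at (0.170), the core assembly chaperone Psmg1 (0.192), Psmf1 (0.215) and Psmd14 (0.387).

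**Figure D2:**
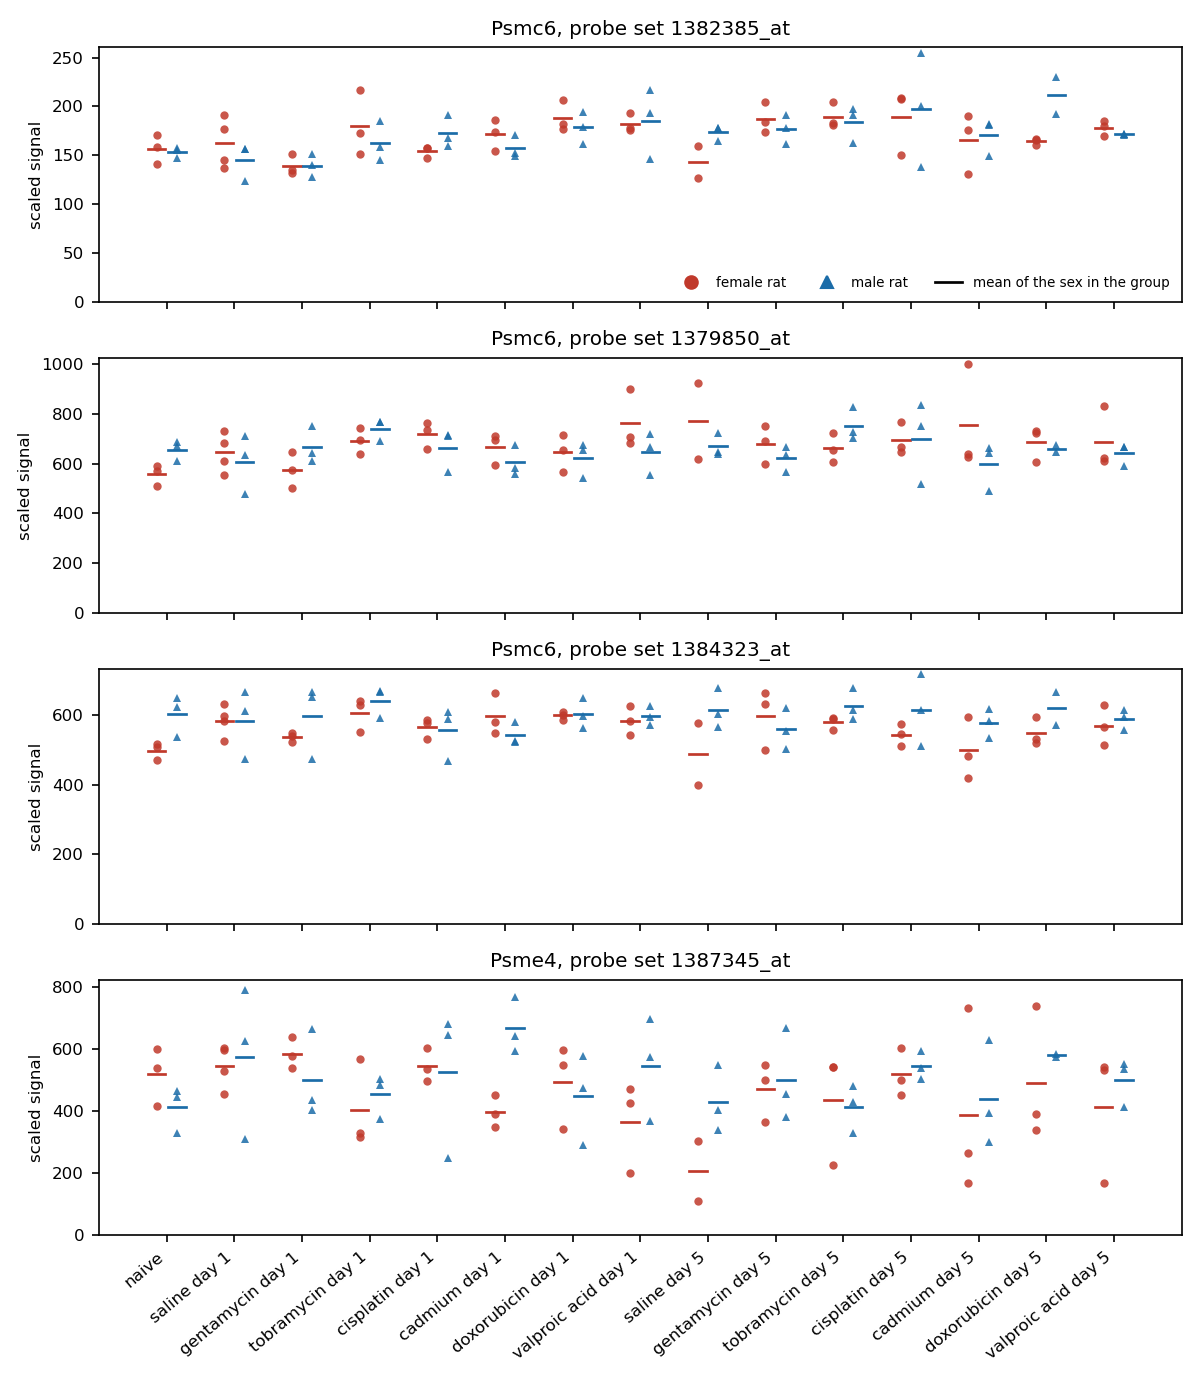
Signal of each rat (linear intensity after scaling) for 3 probe sets of Psmc6 and Psme4 1387345_at in the 15 groups, by sex; bars are the mean of each sex in a group. Psmc6 1382385_at runs from a mean of 140 to 194 between groups, and the low Psme4 values of saline day 5 include the reading of 110 in rat 1F106.

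Other comparisons of the design gave no call among members. The 3 control groups differed from each other in 0 of 53 members (background 0% in all 3 comparisons; 3, 2 and 3 members at an unadjusted p under 0.05, where 6.3% of all probe sets were). The day 5 effect minus the day 1 effect was called in 0 members for each of the 6 agents, with a background of 0% for 5 of them and 0.0443% for doxorubicin; at an unadjusted p under 0.05 there were 0 to 5 members (background 4.37% over the 6 agents). Gentamycin and tobramycin, which are related in structure, differed in 0 members at day 1 and at day 5 (background 0% both times; 2 members each at an unadjusted p under 0.05, background 6.64%), with median differences of -0.03 and -0.01. The 95% interval of this difference lay within 1.5-fold for 52 of the 53 members at day 1 and for 51 at day 5, but whether the doses matched is not known.

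The wider pathway gave little more. Of 39 tested genes around the proteasome (associated proteins, Nfe2l1 and its partners, the Vcp unfoldase, ubiquitin genes, the immunoproteasome and stress partners), 0 were called in the 12 comparisons of 2 groups. In the fit of all 89 arrays, the 3 immunoproteasome subunits were higher with tobramycin at day 1, Psmb8 by 0.86 (limma adjusted p 0.0495), Psmb9 by 1.01 (0.00654) and Psmb10 by 0.68 (0.0199). Hspa1a, a heat shock chaperone, fell by 0.58 (0.0318). Psmb9 stood at 357 ± 198 (SD, n = 6) with tobramycin and 155.5 ± 30.3 (SD, n = 7) with saline. In the same fit the constitutive members' smallest adjusted p was 0.144. The summed signal of 8 interferon response genes was 3492 ± 2918 with tobramycin and 1008 ± 283 with saline at that time. The immunoproteasome and constitutive values share these rats.

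Several members differed between males and females. Among the 18 control rats, 7 of 53 member probe sets (13.2%) were called between males and females, 6 higher in males and 1 lower (limma with group as a term), against a background of 19.3% (8.49% higher and 10.8% lower in males). The members' share was thus not above that of all probe sets. Their direction leaned the other way from the background: 42 of 53 estimates were above 0, against 42.2% of all probe sets, and the median was 0.11 against -0.04. Because tissue was homogenised, fewer cells of a type and less RNA per cell cannot be told apart.

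The alpha-ring subunits Psma1 and Psma5 separated the sexes fully in the controls. Psma1 read 547 to 818 with a median of 795 in 9 females and 835 to 1022 with a median of 939 in 9 males, a difference of 0.33 ± 0.071 (SE; adjusted p = 0.00273). Psma5 read 628 to 875 (median 842) in females and 906 to 985 (median 945) in males, a difference of 0.24 (adjusted p = 0.00304). No male overlapped a female for either gene. The share of all probe sets whose sexes separate as far was not counted, here or for the members below. The separation is therefore not read as particular to these genes. The same direction held in all 15 groups for both genes, and the share of all probe sets that do so was not counted.

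Psmd12, a lid subunit, was higher in males by 0.31 (adjusted p = 0.00534), at 552 ± 52.2 against 444 ± 47.5 (SD, n = 9 each), with 8 of 9 males above every female. Psmd14 was higher by 0.20 (0.0167), again with 8 of 9 males above every female; its other probe sets gave 0.31 (0.241) and 0.06 (0.778). Among the beta subunits, Psmb7 was higher by 0.16 (0.0408) and Psmb2 by 0.22 (0.0420), with 7 and 4 of 9 males above every female. Psmg4, a chaperone of core assembly, was the member lower in males, with a difference of -0.17 (0.0300), at 557 ± 35.7 against 626 ± 49.7 (SD, n = 9 each), and 6 of 9 males lay below every female. The 5 calls other than Psmb2 and Psmb7 were kept in at least 15 of 18 fits that left out 1 rat, whereas Psmb7 was lost in 13 and Psmb2 in 12. Without further scaling of the arrays none of the 7 was called, although all kept their direction. Without the 5 arrays of doubtful treatment text, Psma1, Psma5, Psmd12 and Psmd14 were called and the other 3 were not.

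**Figure D3:**
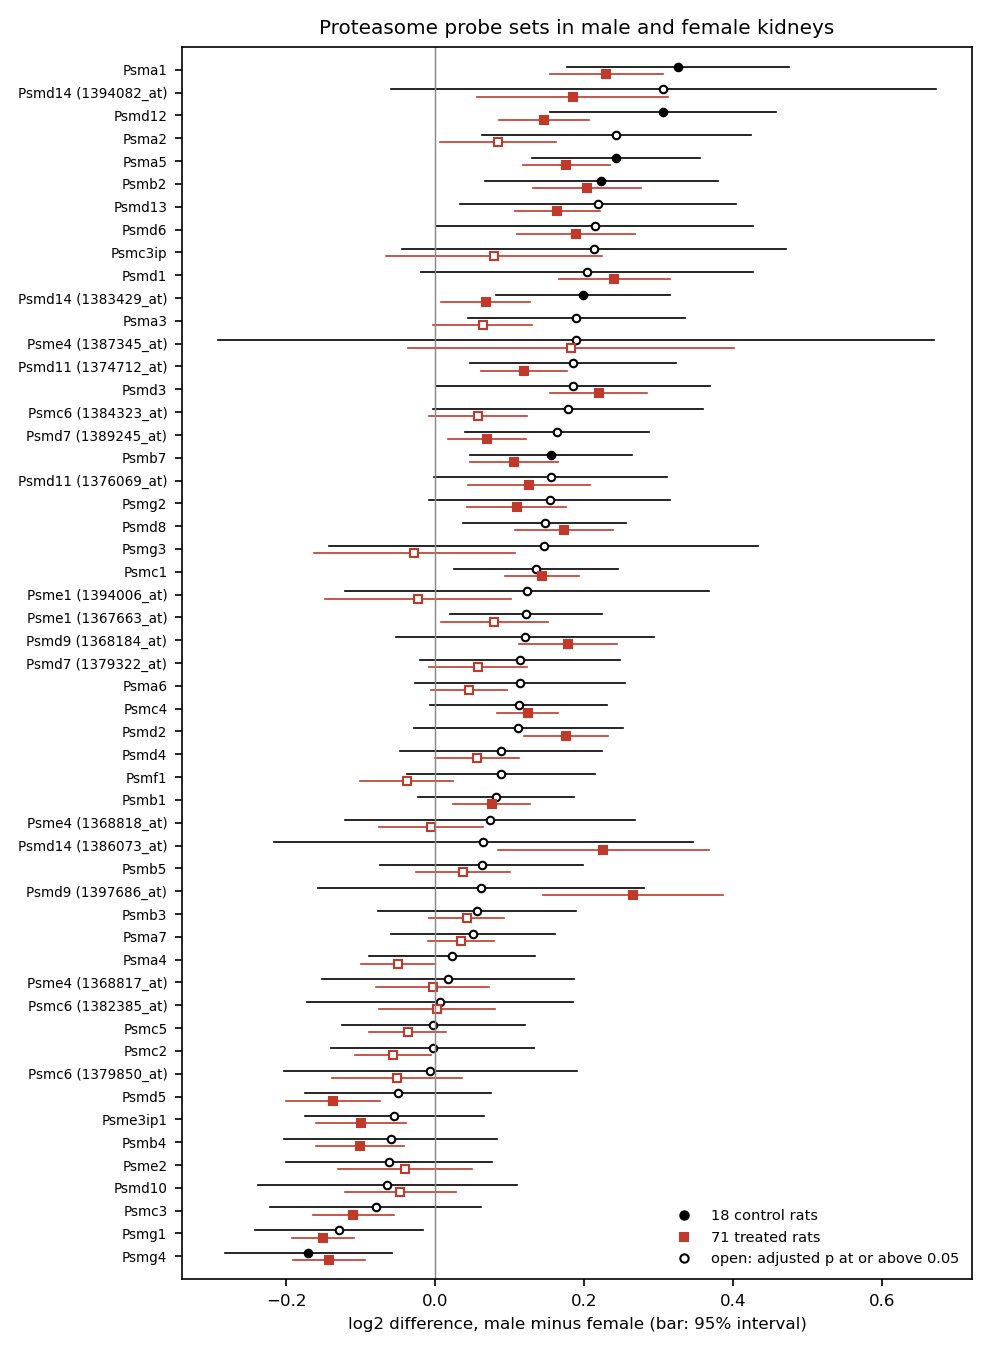
Male minus female difference (log2) of the 53 member probe sets in 18 control rats (circles) and 71 treated rats (squares), with 95% intervals; filled symbols have an adjusted p under 0.05. Every probe set of the 19S non-ATPases lies to the right of 0 in both sets of rats. Those of the 20S alpha ring all do so in controls. Psmg1 and Psmg4 lie to the left.

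The 71 treated rats, which share no animal with the controls, gave all 7 calls again. Most calls over all probe sets were repeated too. Of the 3045 called in controls, 2919 were called in treated rats with the same sign and 0 with the opposite sign. The repeat is therefore not particular to the members. In the treated rats 29 of 53 members differed by sex (54.7%, background 56.8%), 23 higher in males (background 23%) and 6 lower (background 33.9%). Every one of the 7 members called in controls had the same sign. Their differences there were 0.23 for Psma1, 0.20 for Psmb2, 0.18 for Psma5, 0.15 for Psmd12, 0.11 for Psmb7, 0.07 for Psmd14 and -0.14 for Psmg4, each nearer 0 than in controls; that change in size was not tested. With the Gapdh ratio as a term, Psmd14 was no longer called in treated rats (0.07, adjusted p 0.0628). This comparison was added after the control result had been seen. All 15 probe sets of the non-ATPase subunits of the cap, of 11 genes, had estimates above 0 in controls and in treated rats, 2 and 13 of them called. With the Gapdh ratio as a term it was 14 of 15 in controls, where the Psmd14 probe set 1386073_at stood at -0.04, and 15 in treated rats. Over all probe sets, 42.2% of estimates were above 0 in controls and 42.7% in treated rats, with 8.49% and 23% called higher. The 20S alpha ring had 7 of 7 probe sets higher in controls and 6 of 7 in treated rats. The beta ring had 5 of 6 higher in each set of rats. The direction is therefore not particular to the non-ATPases. The ATPases were split, with 4 of 8 probe sets higher in each set of rats. Males were higher in all 15 groups for Psmd1 and Psmd2, the large scaffold subunits, for Psmd3, Psmd8, Psmd13 and Psmc4, and for Psma1 and Psma5. They were lower in all 15 for Psmg1 and Psmg4, assembly chaperones of the core, and for Psmd5, an assembly chaperone of the base. The share of all probe sets with the same direction in all 15 groups was not counted. These constant directions are therefore not read as particular to the members.

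**Figure D4:**
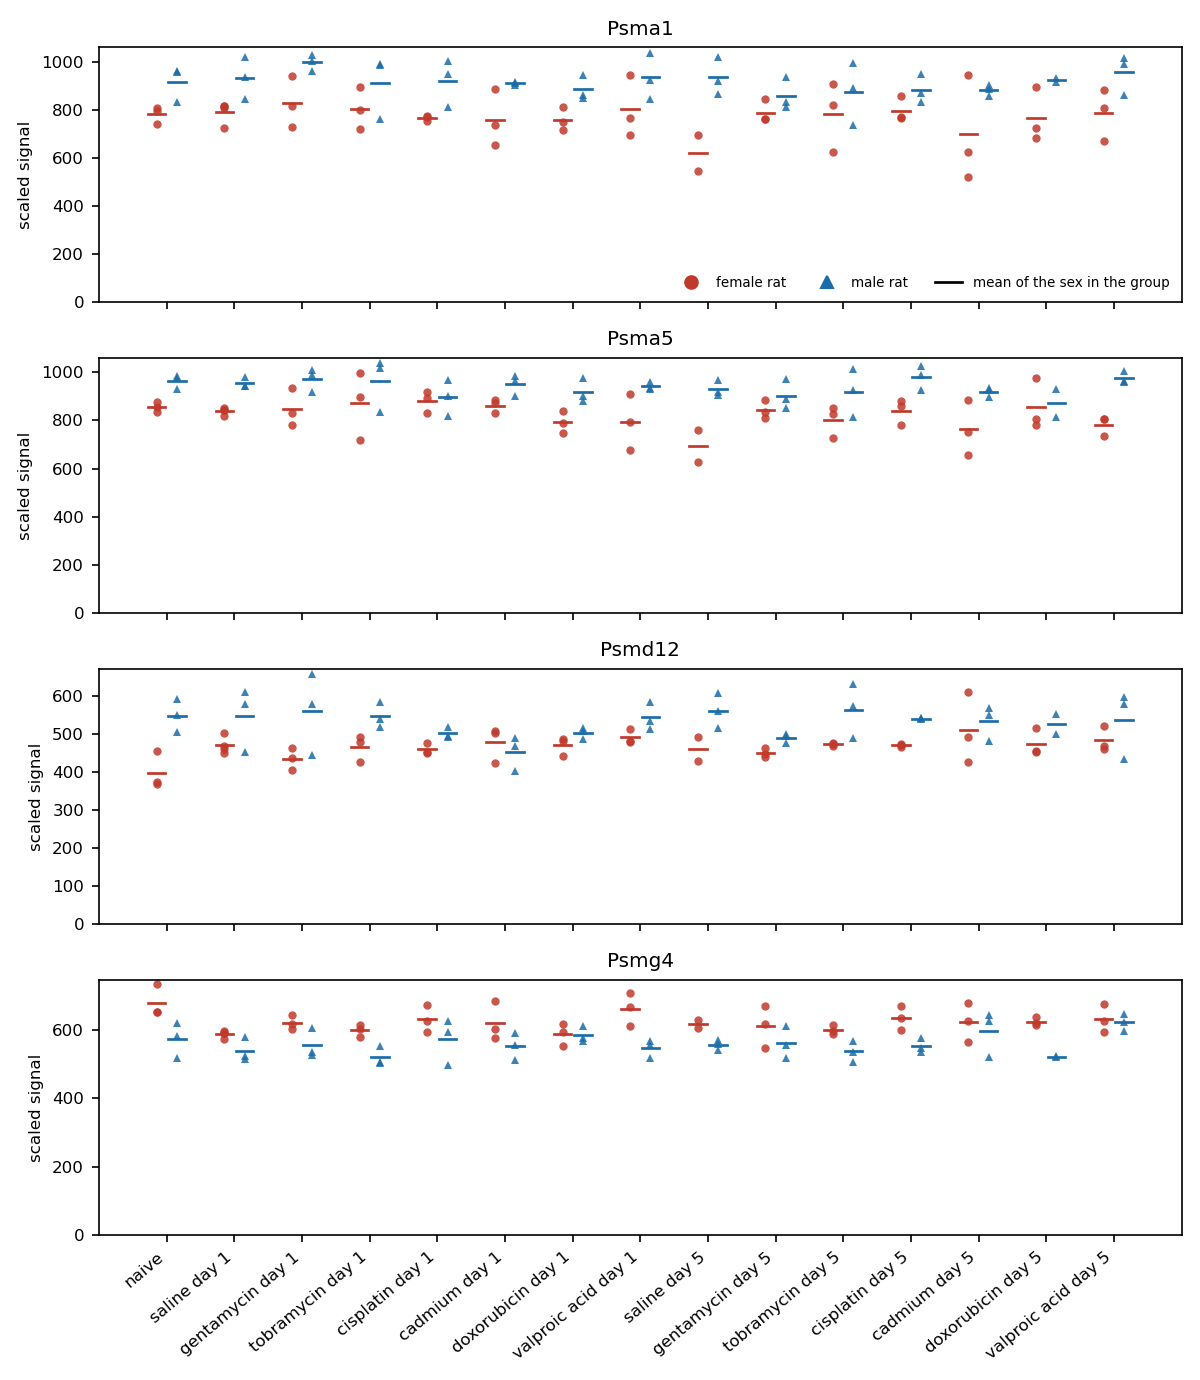
Signal of each rat (linear intensity after scaling) for Psma1, Psma5, Psmd12 and Psmg4 in the 15 groups, by sex; bars are the mean of each sex in a group. Males lie above females for Psma1 and Psma5 in every group by their means, and below them for Psmg4.

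Other measures were also compared between the sexes. The Gapdh ratio averaged 0.510 ± 0.417 in control females and 0.367 ± 0.120 in control males (SD, n = 9 each). The female mean includes rat 1F106, at 1.58. The ratio had medians of 0.460 in females and 0.328 in males with overlapping ranges, and was not tested by sex. With it as a term, the male minus female difference was 0.25 for Psma1, 0.19 for Psma5, 0.34 for Psmd12 and -0.18 for Psmg4 in controls, all still called, and 12 members were called in all (background 20.7%). Psmb2 became 0.15 (adjusted p 0.0724). All 4 adipocyte markers were lower in control males (median -1.38), with a summed signal of 458 ± 354 in males and 1268 ± 781 in females, and 3 of 8 interferon response genes were lower. Of 7 proximal tubule markers, 2 were higher and 1 lower, and 2 of 3 endothelial markers and 1 of 4 collecting duct markers were lower. In treated rats 4 of the 7 proximal tubule markers were higher in males and 1 lower (median 0.26). Lower there were 3 of 4 collecting duct, 2 of 2 podocyte, 3 of 3 endothelial, 4 of 4 adipocyte and 8 of 8 interferon response genes. The part of these cell types in the members' difference was not tested.

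Of the 39 pathway genes, 10 were called by sex in controls, where 19.3% of all probe sets were, so nothing particular to the pathway is read from the count. Higher in males were Vcp, the unfoldase that feeds the proteasome (0.22), Sem1, a small cap subunit (0.34), the autophagy receptor Sqstm1 (0.31), the ubiquitin ligase Ube3c (0.33), Maff (0.36) and Bag3 (0.46). Lower were the small heat shock protein Hspb1 (-1.06), Hspa1a (-0.64), the shuttle factor Ubqln2 (-0.29) and Nfe2l1 (-0.41), whose product drives subunit genes. The 3 immunoproteasome subunits had negative estimates, none called in controls and all 3 called in treated rats.

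Promoters of 3 of the 7 members called by sex are shown here, all 3 of them higher in males. Psmb7, also called higher in males, is described below without its sequence. RefSeq's table for the GRCr8 assembly lists 39 of the 43 members; Psma7, Psmd6, Psmd12 and Psmd14 are not listed there. Each sequence is the 250 bases before the transcript start, 5' to 3' on the coding strand, with CCAAT (the box bound by NF-Y) and TGACNNNGC (the core of the element bound by Nfe2l1 and Nfe2l2 with small Maf proteins) in capitals on either strand. Psma1 lies at chr1:177887858-177888107 (minus strand), Psma5 at chr2:198584255-198584504 (plus strand) and Psmb2 at chr5:144254808-144255057 (plus strand).
Psma1: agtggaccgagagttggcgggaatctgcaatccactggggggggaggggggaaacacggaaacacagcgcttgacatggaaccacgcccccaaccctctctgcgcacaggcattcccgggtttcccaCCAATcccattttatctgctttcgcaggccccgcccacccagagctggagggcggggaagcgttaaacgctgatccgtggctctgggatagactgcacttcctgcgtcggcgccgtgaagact
Psma5: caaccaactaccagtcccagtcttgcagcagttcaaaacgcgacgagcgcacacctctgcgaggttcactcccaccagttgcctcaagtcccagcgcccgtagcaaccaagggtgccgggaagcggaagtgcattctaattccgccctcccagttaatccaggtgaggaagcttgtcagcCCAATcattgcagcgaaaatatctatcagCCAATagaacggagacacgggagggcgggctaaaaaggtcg
Psmb2: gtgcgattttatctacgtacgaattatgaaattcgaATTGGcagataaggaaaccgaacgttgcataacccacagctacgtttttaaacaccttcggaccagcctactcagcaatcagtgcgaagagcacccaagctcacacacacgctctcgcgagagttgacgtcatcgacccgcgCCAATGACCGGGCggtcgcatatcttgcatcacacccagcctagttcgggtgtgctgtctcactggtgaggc
Psma1 has a single CCAAT, Psma5 has it 70 and 41 bases before the start, and Psmb2 at 72 on the coding strand and 214 on the other. In Psmb2 the TGACNNNGC match begins 68 bases before the start, so that it overlaps the CCAAT box there. Psmb7 has CCAAT in its window too, and Psmg4 holds neither motif. Over all listed members, 20 of 39 (51.3%) held CCAAT on either strand, against 34.0% of 33469 promoters of the same length, and 6 of 39 (15.4%) held TGACNNNGC, against 10.1%. Members were counted once per gene, by the first promoter listed, whereas the 33469 are every promoter listed. The shares of members and of all promoters may thus not count like units. The motifs are matches of letters and not measured sites.

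Rat to rat, the members varied partly together. With group and sex removed, the 903 pairs of the 43 genes had a median r of 0.098 over 89 rats, and 65.1% were positive, against 0.0085 and 51.5% for pairs of all tested genes. In all, 313 pairs (34.7%) had an adjusted permutation p under 0.05, 255 positive and 58 negative. The weakest of them had a correlation of 0.252 in size, and 24.5% of all pairs of tested genes lay at or beyond that, 13.02% positive and 11.5% negative. The 15 pairs of ATPases were all positive (median r 0.30), as were the 3 of activators (0.14). Of the pairs within the alpha ring, the beta ring and the non-ATPases, 66.7%, 66.7% and 67.3% were positive. Among the assembly chaperones of the base and of the core it was 33.3% each (median r -0.08 and -0.006). No median by role was computed with the Gapdh ratio removed. The highest of the 903 pairs was Psma2 with Psma5 (r = 0.78, rho = 0.69, and 0.74 without the 2 most extreme rats). It was followed by Psma1 with Psma2 (r = 0.76, rho = 0.62, and 0.70 without 2 rats) and by Psmb4 with Psmc2 (r = 0.75, rho = 0.71, and 0.71 without 2 rats). The lowest was Psma2 with Psmd1 (r = -0.62, rho = -0.56; -0.54 without 2 rats). Each had a permutation p of 1e-05, the smallest possible, and an adjusted p of 0.000122.

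**Figure D5:**
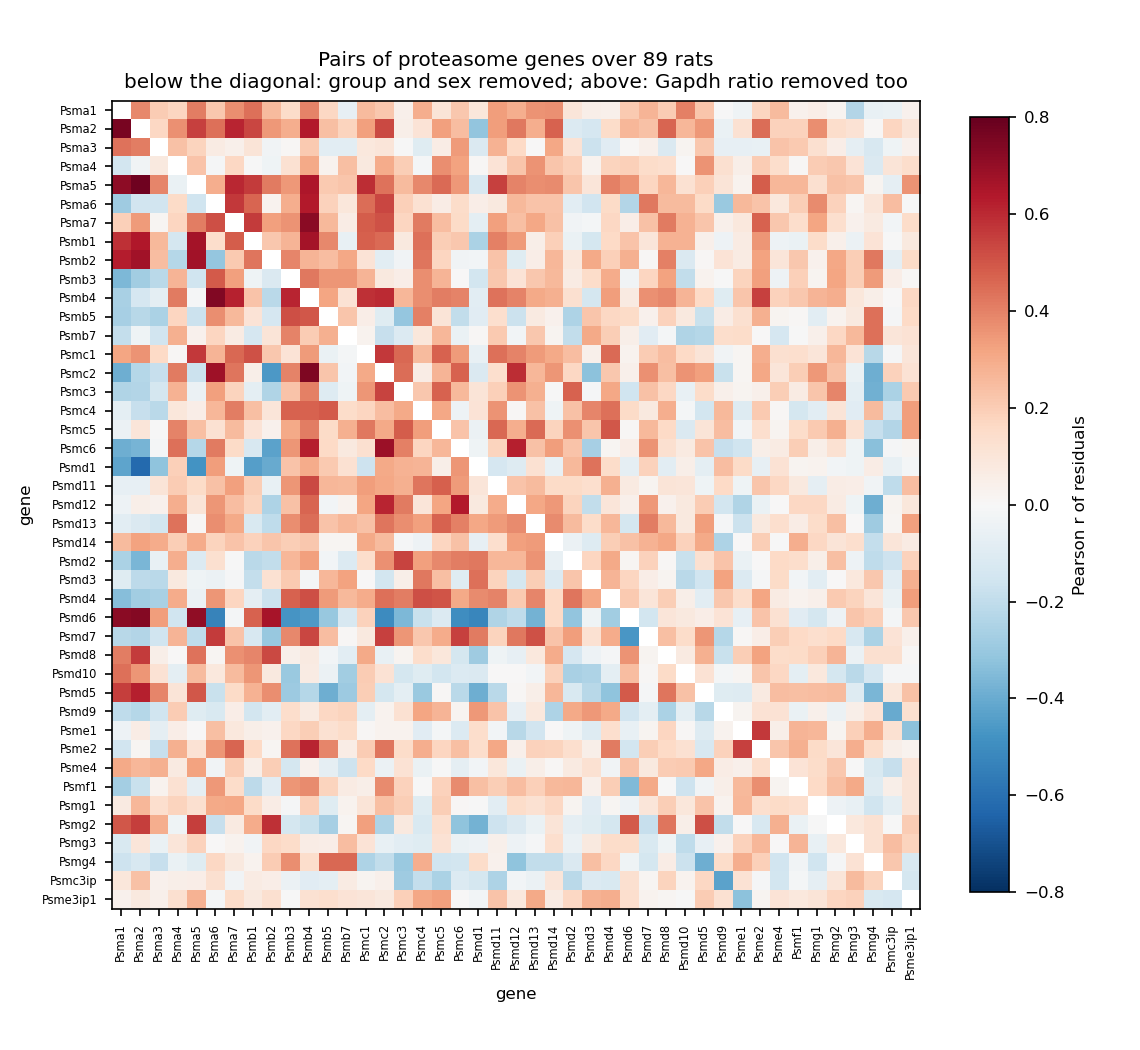
Correlation over 89 rats between the 43 member genes, ordered by role, with group and sex removed (below the diagonal) and with the Gapdh ratio also removed (above it). The pairs among Psma1, Psma2, Psma5 and Psmd6, which do not lie side by side, are paler above the diagonal. There 77.4% of the member pairs are positive.

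With the Gapdh ratio removed, the extreme pairs moved nearer 0, whereas the median r was 0.14 and 77.4% of pairs were positive. The range narrowed from between -0.62 and 0.78 to between -0.40 and 0.72. For pairs of all tested genes, no values were computed with the ratio removed. Whether these shifts are particular to the members is therefore not known. Psma2 with Psma5 became 0.55, Psma1 with Psma2 0.38, Psma2 with Psmd1 -0.31, and Psmb4 with Psmc2 0.60. Psma6 with Psmb4 kept 0.63, from 0.74. Psme1 with Psme2, whose products form 1 activator ring, had r = 0.55 (rho = 0.41) before and 0.57 after.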

How the data were processed

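Kidney RNA of 89 rats was measured on a 1-colour Affymetrix rat array of 31099 probe sets. The deposited values are MAS5 signals, a linear intensity, per the submitters' processing notes; no source used here gives the MAS5 version or its scaling. The 2% trimmed mean of an array ran from 91.5 to 352, so every array was scaled to the common value of 181 and log2(signal + 16) was taken. Probe sets with 1 symbol in GEO's platform annotation and at least 5 arrays above the 40th percentile (a signal of 33.1) were tested, 15800 of 11426 genes. Control probe sets (57), those of several symbols (436) and those without a symbol (9780) were left out.

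Groups were compared with limma 3.58.1 in R 4.3.3 (lmFit, and eBayes with trend and robust estimation), with only the groups compared in the fit, sex as a term, Benjamini-Hochberg adjustment over all probe sets tested and a threshold of 0.05. Intervals are 95% intervals of the fit. The sex difference was fitted with group as a term, and a moderated F test covered the 15 groups. The fit was tested on simulated data. Correlations over rats used residuals after group and sex, with permutation p-values adjusted within each family of 903 pairs or 53 members. Promoter sequences are RefSeq's. Precision is limited by the 5 to 7 arrays of a group.

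The members, gene lists and tests were chosen with earlier results of these data known. Named are the members called in a comparison, the 2 largest rises and falls per treatment comparison among the brighter members, the 6 smallest p of the F test, and fixed subunits (Psmb5, Psmb6, Psmb7, Psme1, Psme2, Psmd4, Psmc4, Psmd14, Psma1). Members named for their sex difference over 15 groups or in treated rats, for a correlation, and the Psme4 probe set 1387345_at were chosen after their values were seen.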

Additional observations from a re-analysis of the deposited data

Results flagged for a closer look

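In 4 of 150 combinations of a measure and a group (2.67%), 1 rat stood apart from the rest of its group. The 10 measures were probe sets of named members and the mean log2 difference of all members from control rats. Chance alone flags about 1 in 20 such combinations. Psmb2, a beta-ring subunit, read 606 in the valproic acid day 1 rat 7F155, where the nearest of the other 5 read 827. Psmb7 read 983 in the tobramycin day 1 rat 4F130, against 1249 for the nearest. Psmd14 1383429_at read 751 in the saline day 1 rat 1M3, the highest of 7, against 629 for the nearest. Psme4 1387345_at read 167 in the valproic acid day 5 rat 7F160, against 411 for the nearest.

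For Psme4 1368817_at, the doxorubicin effect had opposite directions at the days compared: -0.08 at day 1 and 0.24 at day 5. The difference between days was 0.30 (limma interaction, adjusted p = 0.819), so it did not pass the test.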

How the results depend on the processing

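The count of 0 members called after treatment was kept in 11 of the 12 comparisons under every alternative, and in all 12 under every alternative except 1: without further scaling of the arrays, 1 member (Psme4) was called for cisplatin at day 5. The counts of 0 for the control groups, for the differences between days and for the aminoglycosides were kept under all alternatives. Leaving out 1 rat at a time gave 0 calls in each of these comparisons. Without further scaling, the median of all probe sets shifted by -0.30 to 0.16 in the treatment comparisons, and the members' median minus it lay between -0.05 and 0.06. The 7 members called by sex in controls (background 19.3%) became 36 in the fit of all 89 arrays, which also holds the 71 treated rats. The count was 0 without further scaling (median of all probe sets 0.09, of members 0.26) and 12 with the Gapdh ratio as a term (background 20.7%). It was 15 with array quality weights and 4 without the 5 arrays of doubtful treatment text. In the treated rats, chosen after seeing the data, the count was 29 (background 56.8%), and 30 with the Gapdh ratio (background 55%). Leaving out 1 control rat gave 4 (saline rats 1M2 and 1M3) to 11 (saline rat 1F106). For the other settings the share of all probe sets called is not given. These changes in count are therefore not read as particular to the members. The 1 member called over the 15 groups became 0 with quantile normalization, without further scaling, without the filter, without the sex term and with 1 probe set per gene, where that probe set is not used; leaving out 1 rat gave 0 to 1, with 0 in 41 of 89 fits.

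The 53 uncalled changes named by the rule stayed below the threshold in all 719 fits made for them under other settings, 674 of which kept the direction and 45 of which did not. Psme4 1387345_at with cisplatin at day 5, which is not among the 53, was called at 0.97 (adjusted p 0.0218) without further scaling, from 0.82 (0.622). The cause was not tested. With the Gapdh ratio as a term, Psmd6 turned to -0.0075 (cisplatin day 5) and -0.009003 (doxorubicin day 5), and Psmd11 to 0.0048 (1374712_at, doxorubicin day 5) and 0.0207 (1376069_at, valproic acid day 5). With array quality weights, Psmd11 1374712_at with tobramycin at day 5 was 0.0039. Against naive rats at day 5, Psmd11 1376069_at was 0.04996 (gentamycin), 0.091 (tobramycin), 0.101 (cisplatin), 0.121 (cadmium), 0.056 (doxorubicin) and 0.193 (valproic acid). Psmd6 was -0.0179 (tobramycin), -0.0177 (cisplatin), -0.0202 (doxorubicin) and -0.04001 (valproic acid). Psmc6 1379850_at was 0.131 (cadmium) and 0.127 (valproic acid), Psma5 -0.118 (cadmium) and Psma7 0.0177 (cisplatin). At day 1 Psme4 1368817_at was 0.0998 (tobramycin) and 0.105 (cisplatin). Against all 18 controls, Psma5 was -0.0682 (cadmium day 5), Psmc6 1379850_at 0.054 (cadmium day 5) and 0.0499 (valproic acid day 5), Psmd11 1376069_at 0.0172 (cadmium day 5) and 0.0885 (valproic acid day 5), and Psme4 1368817_at 0.0083 (tobramycin day 1) and 0.0131 (cisplatin day 1). Without further scaling at day 1, Psma4 was -0.0764 (cadmium), -0.268 (doxorubicin) and -0.0213 (valproic acid), Psmc6 1379850_at -0.127 (tobramycin), -0.0681 (cisplatin) and -0.0272 (valproic acid), Psma6 -0.295 (doxorubicin), Psma7 -0.0628 (cadmium), Psmb7 -0.14 (cisplatin) and Psme1 -0.238 (tobramycin). At day 5 Psma5 was -0.131 and Psmd14 -0.122 (cadmium), Psma7 0.108 (cisplatin), Psmb5 0.0272 (gentamycin), Psmc6 1379850_at 0.00022 (valproic acid), and Psmd11 1376069_at 0.0116 (cisplatin) and 0.0337 (valproic acid).

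No paired analysis was possible because no animal number recurs in another group. Groups of 5 to 7 rats limit what the test can call, and signal over background was high for most members, so depth of signal is a limit mainly for Psmd9 1397686_at, Psmd14 1386073_at and Psme1 1394006_at, with mean signals of 39.1, 51.7 and 26.0.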
